A study of Mus musculus with 46 samples.

Results

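The longest stretches of H3.3 enrichment in mouse induced pluripotent stem cells (iPSCs) were taken as every peak of the iPSC H3.3 list whose end minus start was at least 8 kb. This gave 477 domains of 81867 peaks, or 0.583% of the peaks and 4.93% of the base pairs they covered (5.27 Mb). The length was itself measured in the iPSC library, so the iPSC H3.3 values below describe the domains, and the comparisons rest on the other libraries. Each cell population was sequenced as 1 library per antibody, with no replicate, so no test between populations was possible and every interval given is a 95% interval for counting error only.

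ChIP-seq of H3.3 was deposited for 16 populations, and of H3K4me3 and H3K36me3 for 7 populations each. Mouse embryonic fibroblasts (MEFs) from E13.5 embryos carried an IRES-EGFP cassette behind the stop codon of Oct4 (Pou5f1). Reprogramming used retroviral pMXs vectors for Oct4, Sox2, Klf4 and c-Myc (OSKM). The series began with fibroblasts labelled D0 and cells collected at day 3 (D3). The paper does not state whether the D0 cells had already been infected, and in its knockdown experiments it counts the days from the infection. Later cells were sorted, at day 6 and day 9 by the fibroblast surface protein Thy-1 and at day 12 and day 16 by the pluripotency antigen SSEA-1. The Thy-1-negative (D6T-, D9T-) and SSEA-1-positive (D12S+, D16S+) cells are the ones the study treats as the successful route, and D6T+, D9T+, D12S- and D16S- as the unsuccessful populations. Fully reprogrammed iPSCs and ESD3, a mouse embryonic stem cell line, close that series, while a second series held unconverted MEFs, cells at day 4 of induction with Scl, Lmo2, Runx1 and Bmi1 (D4), and sorted cKit+ and cKit- cells from the end of that blood-directed conversion on OP9 stroma. The H3.3 libraries held 18.7 to 91.8 M tags and 25637 to 108179 peaks, and the iPSC library 41.2 M tags. The iPSC list carried its label: all 10 pluripotency markers (among them Pou5f1, Nanog, Sox2 and Esrrb) held an iPSC H3.3 peak, and iPSC peaks covered 0.737% of the summed length of 10 fibroblast markers, against 73.5% in D0. Of 5 blood markers, 3 held an H3.3 peak in each of iPSCs, D0 and ESD3, and Ptprc and Gata1 held none. Peaks covered 3.08%, 0.988% and 2.61% of the summed length of the 5, so this list did not separate these cells.

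H3.3 is the histone H3 variant that can be placed into chromatin outside DNA replication. The Hira chaperone deposits it along transcribed genes and at regulatory elements, and Atrx with Daxx deposits it at repeats and heterochromatin. H3K4me3 marks active and poised promoters, and H3K36me3 accumulates along the bodies of transcribed genes, so both marks help to place a broad H3.3 domain within a gene. Pluripotent cells are known for a self-sustaining network of factors around Oct4, Sox2, Nanog and Esrrb.

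The sequence of the domains is shown at matches to TCAAGGTCA, the extended nuclear-receptor element that Esrrb binds, because its density differed with the D0 cover of the domains. The windows were read from the mouse genome build mm9 in the longest domains with no H3.3 peak in D0, D3 and MEF and in domains at pluripotency genes. Further windows outside exons, at chr10:62325712-62325772 (Tet1), chr17:23739317-23739377 (Zfp13/Zscan10) and chr2:17905046-17905106 (near H2afb1), are not printed. Matches within repeats were not set apart in the counts. The printed windows lie outside annotated exons, are written 5′ to 3′ on the strand of the match, and carry the match in capitals. They lie at chr9:114456135-114456195 (plus strand, intron of Trim71), chr16:8747771-8747831 (plus strand, Usp7), chr6:122682271-122682331 (minus strand, Slc2a3), chr12:87842983-87843043 and chr12:87844475-87844535 (plus strand, intron of Esrrb), and chr10:62359777-62359837 and chr10:62360140-62360200 (plus strand, Tet1).
Trim71: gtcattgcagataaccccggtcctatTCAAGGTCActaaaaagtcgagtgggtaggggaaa
Usp7: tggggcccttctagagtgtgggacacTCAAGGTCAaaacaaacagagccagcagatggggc
Slc2a3: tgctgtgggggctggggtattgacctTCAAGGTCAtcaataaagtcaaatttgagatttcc
Esrrb, first: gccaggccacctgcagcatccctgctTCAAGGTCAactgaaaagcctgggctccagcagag
Esrrb, second: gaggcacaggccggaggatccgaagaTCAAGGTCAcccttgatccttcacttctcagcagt
Tet1, first: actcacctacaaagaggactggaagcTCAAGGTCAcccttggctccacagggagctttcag
Tet1, second: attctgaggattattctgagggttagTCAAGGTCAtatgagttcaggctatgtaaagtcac

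The domains were long and somewhat denser in tags than the other iPSC peaks, with a similar fold over input. Their median length was 9.85 kb (interquartile range 8.74 to 11.8 kb), 111 reached 12 kb, 38 reached 16 kb and 15 reached 20 kb. The normalized tag count (tags scaled to 10 M) divided by the length had a median of 13.6 tags per kb (interquartile range 12.9 to 14.5), against 11.8 in the other iPSC peaks and a calling limit of 10.7 per kb. In 463 domains it lay between 10 and 20 per kb. The fold over input had a median of 3.14, against 3.26 in the other peaks. At the length limit, the shortest members were the Dnaja1/Smu1 domain of 8004 bp, the Lamc1 domain of 8006 bp and the Zfp524/Zfp865 domain of 8013 bp. The longest peaks left out, near Gm14409, at Gm10244 and at Ggta1, measured 7999, 7976 and 7966 bp, and their 18.6, 13.1 and 12.1 tags per kb overlapped the 13.8, 12.95 and 17.1 of those members.

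**Figure D1:**
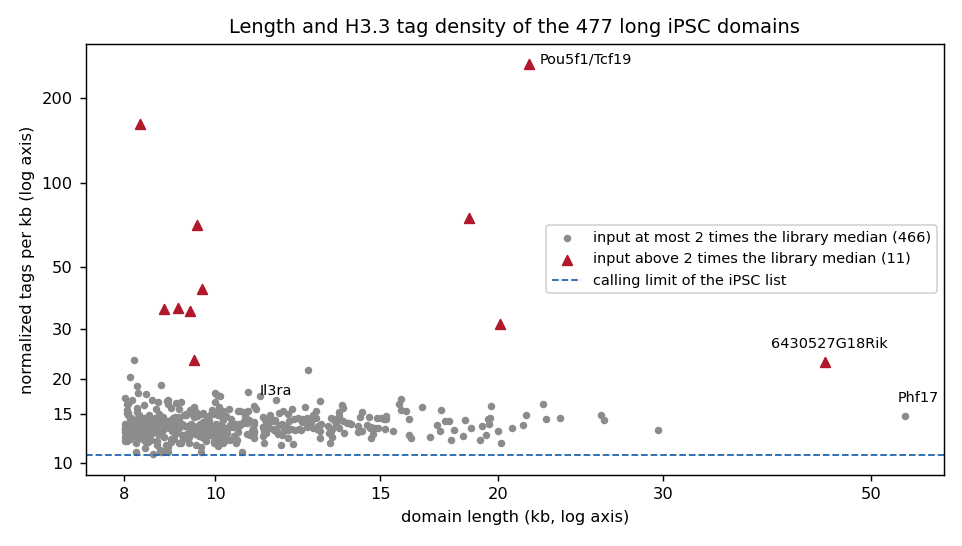
Length in kb (log axis) against H3.3 normalized tags per kb (log axis) for the 477 long iPSC domains, 1 point each; triangles are the 11 domains whose input density exceeds 2 times the median of all iPSC H3.3 peaks, and the dashed line is the calling limit of 10.7 tags per kb. Unmarked domains stay at or below 23.3 tags per kb at every length, and Pou5f1/Tcf19 stands at 265.9.

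The longest domain covered 54.3 kb at Phf17 (chr3:41371157-41425489), which encodes Jade1, a scaffold of the HBO1 histone acetyltransferase complex. This domain took in 81.2% of the gene, with its 3′ end but without a start site. It was followed by 44.6 kb at 6430527G18Rik, 29.7 kb at the 3′ end of Trim71, which encodes an RNA-binding ubiquitin ligase of early embryos, and 25.96 kb at the 3′ ends of Ncoa3, which encodes a coactivator of nuclear receptors, and Sulf2, lying mostly in Ncoa3. The others among the 10 longest lay at Rab19/Mkrn1 (25.8 kb), Igf2bp1, which encodes an RNA-binding protein (23.3 kb), Bptf, which encodes a subunit of the NURF remodeller (22.5 kb), Trim28 with Chmp2a, Ube2m and Mzf1 (22.3 kb), Pou5f1 with Tcf19 (21.6 kb) and Bcl3 (21.4 kb). The cover of the longest in other cells differed: Phf17 was covered over 33.7% in D0, 4.39% in D16S+ and 39.1% in ESD3, whereas the Trim28 domain was covered over 77.0%, 58.7% and 59.0%. Trim71 was covered over 12.5% in D0, 35.1% in D16S+ and 82.4% in ESD3.

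Among domains without raised input, both genes and sites outside genes were among the densest. The first, 23.3 tags per kb, was an 8.20-kb region outside genes near Vmn1r3 (chr4:3101801-3109997). It was followed by a region near BC107364 (21.5), Rpl3, which encodes a ribosomal protein (20.4), Npm1, which encodes nucleophosmin (19.1), and Cd68/Eif4a1, where Eif4a1 encodes a translation initiation helicase (18.9). Il3ra (17.99), a region near Matr3 (17.8), Hsp90aa1, which encodes an HSP90 chaperone (17.8), and a region near F3 (17.6) came next. The Rpl3, Npm1 and Cd68/Eif4a1 domains were covered over 77.1% to 100% in all libraries but cKit+ and cKit-, while the region near Vmn1r3 had no peak in 12 of the 15 other H3.3 libraries and was covered over 64.2% in D12S+, 76.3% in D16S+ and 97.2% in ESD3.

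Most of the domains lay on genes of the GENCODE annotation of this build. A protein-coding start site lay in 168 (35.2%; Wilson interval 31.1% to 39.6%), a gene end but no start site in 108 (22.6%), 133 (27.9%) lay within a gene, and 68 (14.3%) lay outside protein-coding genes. Start sites were commoner than in shorter peaks. Among 3116 iPSC peaks of 4 to 8 kb, 28.8% held a start site, a difference of 6.40 percentage points (Newcombe interval 1.95 to 11.1), and a window that is longer meets more start sites. The domain covered a median 24.7% of the gene it overlapped most and at least 50% of it in 114 cases. Several genes carried more than 1 domain, among them Etl4 with 5 (56.8 kb in sum), Ahdc1 and Usp7 with 4 each, and Trim71, Actn4, Ncoa3, Nsd1, Rbpms and Zmynd8 with 3 each. Chromosome 11 held 49 domains (10.3%, against 7.91% of all iPSC H3.3 peaks), chromosome 4 held 43 (9.01%, against 7.60%) and the X chromosome held 1 (0.210%, against 0.958%).

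Around the 138 domains that held the start site of exactly 1 gene, H3.3 extended to both sides. The domain reached a median 4.96 kb upstream and 5.59 kb downstream of the start site, and further downstream than upstream in 72 of 138 (52.2%). H3K4me3 of iPSCs fell from 83.7% of bases at the start site to 51.1% at 2 kb downstream. The iPSC H3.3 peaks, which chose the domains by their length, still covered 69.2% at 5 kb. That choice set the wider reach of H3.3, and H3K4me3 was called at 4-fold against 2-fold. The widths of the 2 marks can therefore not be compared here. In ESD3, H3.3 covered 32.1% of bases just downstream of the start site and 55.7% at its highest point 0.875 kb upstream, and in D16S+ the same positions gave 33.8% and, at 0.625 kb upstream, 53.7%.

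**Figure D2:**
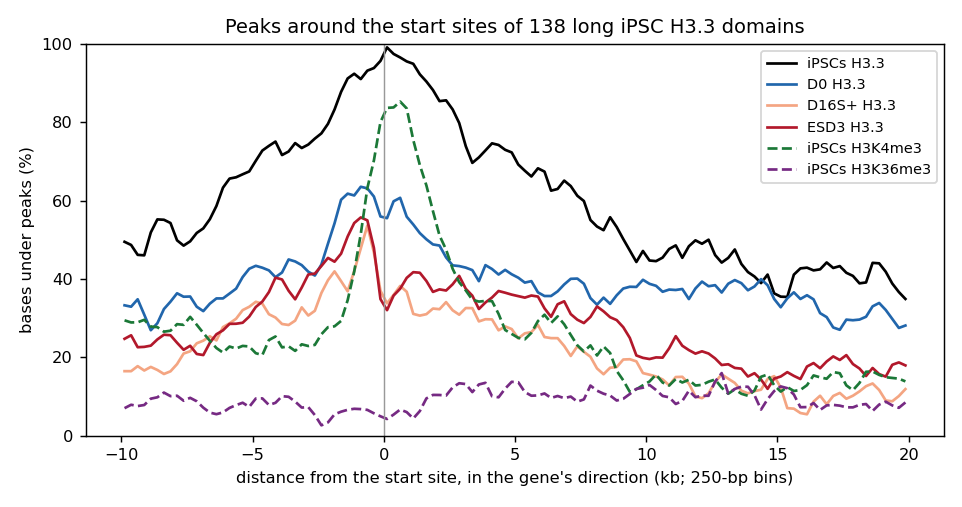
Percent of bases under peaks in 250-bp bins from 10 kb upstream to 20 kb downstream of the start site, in the direction of the gene, for the 138 long iPSC domains that hold the start site of 1 gene; solid lines are H3.3 of iPSCs, D0, D16S+ and ESD3, dashed lines H3K4me3 and H3K36me3 of iPSCs. H3.3 of D16S+ and ESD3 shows a maximum just upstream of the start site and dips at it, while H3K4me3 is highest at 0.625 kb downstream, at 85.3%.

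The first comparison asked in which other cells the same stretches carried H3.3. A domain was counted as held by a library when at least 50% of its length lay under the peaks of that library. Absence of a peak says only that the tags there did not reach the calling limit of that list. D0 fibroblasts held 248 of the 477 domains (52.0%; interval 47.5% to 56.4%), against 23.6% of all iPSC H3.3 peaks. D3 held 199 (41.7%, against 16.8%), D6T- 309 (64.8%, against 28.3%) and D9T- 289 (60.6%, against 23.7%). D12S+ held 229 (48.0%, against 14.9%), D16S+ 144 (30.2%; interval 26.2% to 34.5%, against 9.87%) and ESD3 226 (47.4%; interval 42.9% to 51.9%, against 17.3%). The share was highest at day 6 and lowest at day 16 of the successful route. D16S+ also had the fewest tags of the H3.3 libraries, 18.7 M against 29.7 M in D6T-. All 7 shares lay above that of all iPSC peaks. They also exceeded those of iPSC peaks of 4 to 8 kb, by 12.5 percentage points in D0 (7.72 to 17.3), 10.3 in D16S+ (6.09 to 14.8) and 12.8 in ESD3 (8.0 to 17.5).

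The libraries differed in how much was called in all, from 17.7 Mb in cKit+ to 267.1 Mb in D4, so the count was repeated with the 25637 top-scoring peaks of each H3.3 list. The shares were then 45.1% in D0, 59.7% (D6T-), 56.4% (D9T-), 45.5% (D12S+), 29.1% (D16S+) and 41.5% (ESD3), and D16S+ stayed lowest of the route. The top-scoring peaks differed in breadth too, with 83.9 Mb kept in D0 and 25.1 Mb in D16S+, and equal lists do not level the number of tags. The unsuccessful populations held 40.3% (D6T+), 46.1% (D9T+), 72.7% (D12S-) and 55.1% (D16S-) of the domains, against 14.9%, 17.6%, 32.9% and 19.6% of all iPSC peaks. In the second series, MEFs held 28.9% and D4 74.4% (against 10.8% and 43.4%), and cKit+ and cKit- cells held 1.26% and 3.14% (against 2.12% and 2.29%), where those lists covered 17.7 and 17.8 Mb in all.

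**Figure D3:**
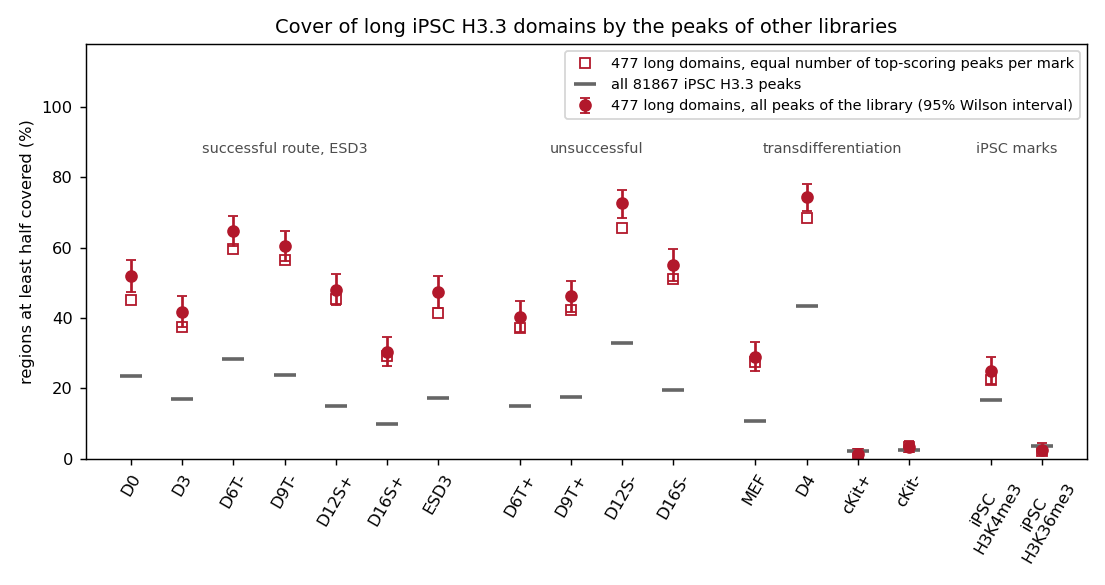
Percent of the 477 long iPSC domains that are at least 50% covered by the peaks of each other library (filled circles, 95% Wilson interval), the same with lists cut to equal size within a mark (open squares), and of all 81867 iPSC H3.3 peaks (grey bars). The domains run from 30.2% in D16S+ to 74.4% in D4 among the H3.3 libraries outside MEF, cKit+ and cKit-, and lie above the grey bar in each of those.

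Touching was much more common than holding. ESD3 peaks met 473 of the 477 domains (99.2%), D12S+ peaks 469 (98.3%) and D16S+ peaks 465 (97.5%), while D0 peaks met 423 (88.7%) and MEF peaks 389 (81.6%). Of all iPSC H3.3 peaks, 65.5% were not met by any ESD3 peak, 69.7% by none of D12S+, 74.8% by none of D16S+, 64.8% by none of D0 and 78.9% by none of MEF. A longer region is met more easily, and all iPSC peaks had a median length of 782 bp. Of iPSC peaks of 4 to 8 kb, 91.4% were met in ESD3, 86.9% in D12S+, 84.05% in D16S+, 74.6% in D0 and 58.8% in MEF. A domain met a median of 3 peaks in ESD3, D12S+ and D16S+, whose longest had a median of 3.02 kb, 3.17 kb and 2.20 kb, and of 2 peaks in D0, D12S- and D16S-, whose longest had a median of 4.76 kb, 8.07 kb and 4.01 kb. An ESD3 peak of at least 8 kb was met by 29 domains and a D0 peak of that length by 142, where the ESD3 list holds 31 such peaks in all and the D0 list 1201. The 4 domains with no ESD3 peak lay near Srpk2, at Eif4b, at Morc3 and near 9230019H11Rik, the last of which has raised input.

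The first library of the successful route to hold a domain was D0 in 248 cases, D3 in 20 and D6T- in 64. It was D9T- in 11, D12S+ in 19 and D16S+ in 11. The remaining 104 (21.8%; interval 18.3% to 25.7%) were held by none of the 6 libraries before iPSCs, against 50.4% of all iPSC peaks. The counts by first library after D0 were not made over all iPSC peaks. A first hold was often not kept. Of the 64 domains first held at D6T-, 27 were held in D6T- and D9T- only. Another 15 were held in D6T- only, and 10 in every library of the route from D6T- on. Of the 248 domains held at D0, 83 were held in all 6 libraries, which was 17.4% of the 477, against 1.35% of all iPSC peaks. Another 52 (10.9%, against 2.57%) were held in the first 5 of these and not in D16S+, the list with the least cover of the route at 29.3 Mb. At the far ends, 62 domains were held by at least 13 of the 15 other H3.3 libraries and 48 by none of them (13% and 10.1%), against 0.715% and 32.4% of all iPSC peaks. These shares of all iPSC peaks come mostly from shorter peaks and were not matched for length.

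Held in all 15, cKit+ and cKit- included, were only the domains at Eno1 (13.6 kb, chr4:149613393-149627041) and Pkm2 (10.3 kb, chr9:59517434-59527783), which encode the glycolytic enzymes enolase and pyruvate kinase. The Eno1 domain was covered over 91.7% to 100% in the reprogramming series and ESD3, over 100% in MEF and D4, and over 51.0% in cKit+ and 62.6% in cKit-. The Pkm2 domain was covered over 94.6% to 100% outside cKit+ (63.8%) and cKit- (53.5%). They were also among the 12 domains at least 50% covered by H3K36me3 in iPSCs, with 54.3% at Eno1 and 59.5% at Pkm2.

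The domains were also grouped by their D0 value. The 248 domains held by D0 were covered over a median of 81.4% at D0, 69.2% at D3, 90.5% (D6T-), 81.3% (D9T-), 64.8% (D12S+), 44.2% (D16S+) and 51.3% (ESD3). The 54 domains with no base under a D0 peak (11.3%, against 64.8% of all iPSC peaks) had medians of 0% at D3, 11.4% (D6T-), 20.3% (D9T-), 23.6% (D12S+), 29.5% (D16S+) and 43.7% (ESD3). Cover of the first group was highest at day 6 and fell to day 16, whereas cover of the D0-negative group was higher at each later library of the route, and ESD3 peaks met all 54. The group is negative in D0 alone, since D3 peaks met 20 of the 54 and MEF peaks 14. In the 175 domains between, the medians were 23.8% in D0, 46.1% in D6T-, 30.04% in D16S+ and 42.8% in ESD3. The groups were defined on D0, so only the other libraries bear on the difference.

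**Figure D4:**
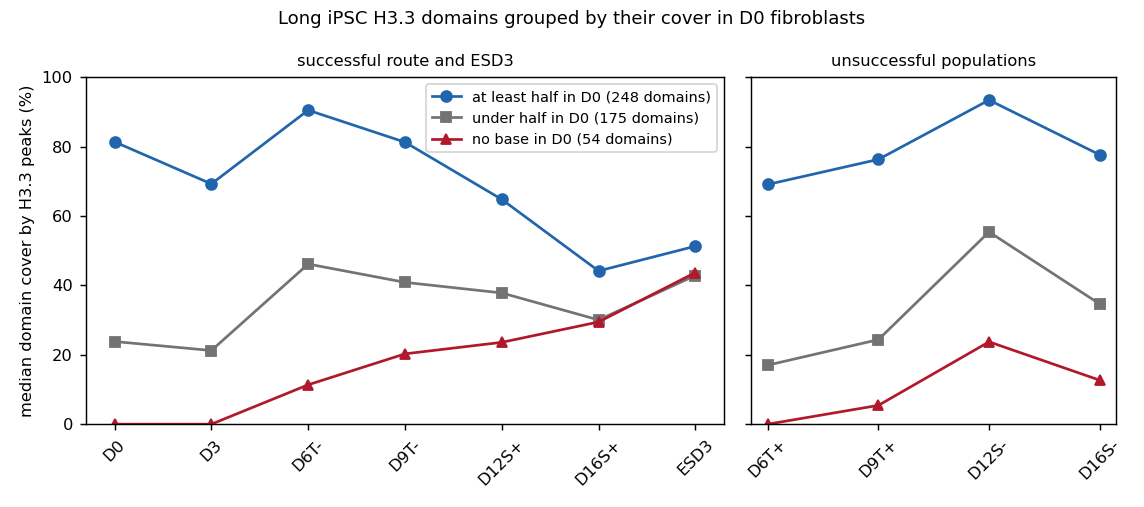
Median percent of domain length under H3.3 peaks in the successful route and ESD3 (left) and in the unsuccessful populations (right), for domains at least 50% covered in D0 (circles, 248), covered over less than that (squares, 175) and with no covered base (triangles, 54); lines join libraries for reading only. The circles end at 44.2% in D16S+ and 51.3% in ESD3, and the triangles climb from 0% in D0 to 29.5% and 43.7%.

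Sorted populations of the same day were compared domain by domain. At day 6 cover was larger in D6T- than in D6T+ in 397 domains and smaller in 34, and at day 9 larger in D9T- in 342 and smaller in 92. From day 12 the order turned, with cover larger in D12S- in 389 domains against 72 for D12S+, and larger in D16S- in 339 against 132 for D16S+. The lists differed in the same direction, with 140.8 Mb called in D12S- and 45.5 Mb in D12S+, and 77.3 Mb in D16S- and 29.3 Mb in D16S+. Of the domains that differed, the population of the successful route had the larger cover in 92.1%, 78.8%, 15.6% and 28.03% at the 4 days, and of all iPSC H3.3 peaks that differed in 78.9%, 66.4%, 21.2% and 34.6%, so the order turned over all iPSC peaks as well. At day 12 cover was larger in D12S- in 226 of the 248 domains held by D0 and in 140 of the 175 partly covered, and at day 16 D16S- was larger in 234 of the 248 and in 90 of the 175, against 82 for D16S+, an order that turned to 76 against 93 with equal lists. In the D0-negative group the populations of day 12 were close, with D12S+ larger in 28 domains and D12S- in 23, and medians of 23.6% and 23.7%. At day 16 the order in this group was the opposite of that over all domains. D16S+ was larger in 36 of 54 domains and D16S- in 15, with medians of 29.5% and 12.7%. With equal lists these counts were 39 and 10, and over all domains D16S- was larger in 315 and D16S+ in 149. The counts by D0 group were not made over all iPSC peaks. With 1 library per population, all these counts compare libraries.

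**Figure D5:**
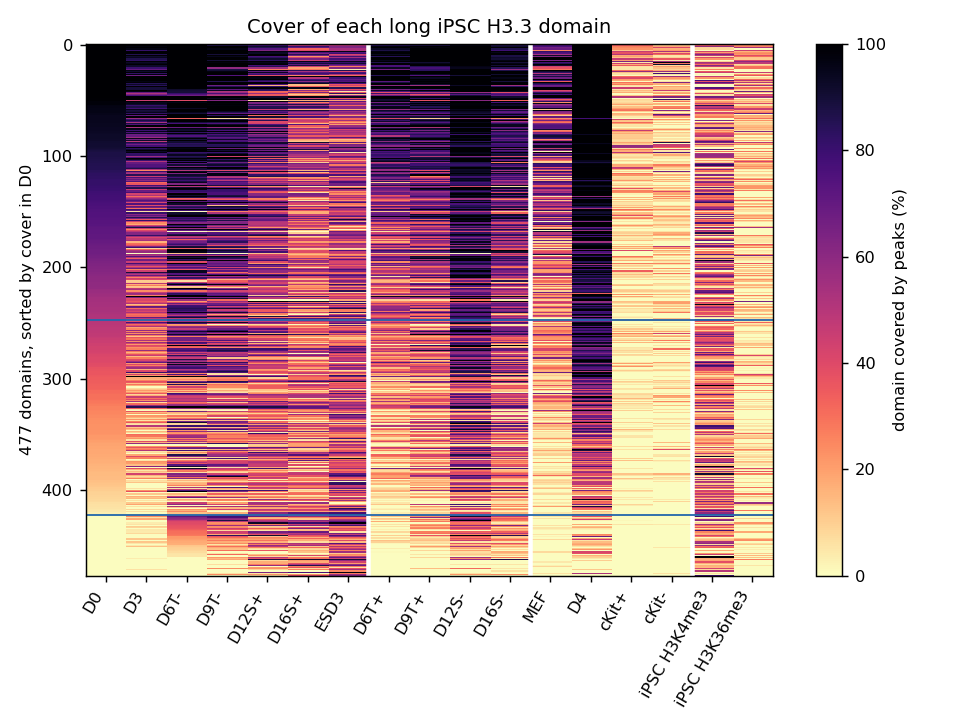
Percent of each domain under peaks (colour, 0% to 100%) for the 477 long iPSC domains (lines, sorted by cover in D0) in the other H3.3 libraries and in H3K4me3 and H3K36me3 of iPSCs; white lines part the successful route with ESD3, the unsuccessful populations, the second series and the iPSC marks, and the 2 blue lines part the 248, 175 and 54 domains grouped by D0. D4 and D12S- are the darkest columns and cKit+ and cKit- the palest, and the lowest block has its highest median cover in ESD3, at 43.7%.

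Of 65 genes of a pluripotency list, 10 (15.4%) overlapped a domain, against 2.14% of 22238 protein-coding genes. Of 20 housekeeping genes 3 did so (15.0%), of 30 epithelial genes 2 (6.67%) and of 46 fibroblast genes 0. The 10 were the network factors Pou5f1, Nanog, Esrrb, Sall4 and Zscan10, the chromatin proteins Trim28, Tet1, Cbx7 and Phc1, and Mybl2, a cell-cycle transcription factor. Both the lists and the domains were drawn up with earlier results of these data known, so the counts are a description.

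The Nanog domain (15.2 kb, chr6:122653193-122668407), at the homeobox gene of the pluripotency network, spanned the whole gene. It was covered over 3.29% in D0, 0% in D3, 13.03% (D6T-), 15.7% (D9T-), 60.5% (D12S+), 72.3% (D16S+) and 77.8% (ESD3). The unsuccessful populations gave 3.29% (D6T+), 9.37% (D9T+), 38.0% (D12S-) and 15.3% (D16S-), and the second series 0% to 7.53%. Nanog was thus high in the SSEA-1-positive and ESD3 libraries, which did not overlap the others.

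Mybl2 carried a pair of adjoining domains of 12.9 kb and 10.99 kb. The 12.9-kb domain, shared with Gtsf1l, had 0% in D0, 3.87% in D3, 39.5% (D6T-), 23.4% (D9T-), 93.2% (D12S+), 81.0% (D16S+) and 100% (ESD3), against 0%, 0%, 28.6% and 3.68% in D6T+, D9T+, D12S- and D16S- and 0% in all 4 libraries of the second series. The 10.99-kb domain reached 42.1% in D12S+, 42.0% in D16S+ and 51.3% in ESD3, and no more than 16.3% elsewhere. Both stood out in SSEA-1-positive cells and ESD3.

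Tet1, which encodes a 5-methylcytosine oxidase, also carried 2 domains with unlike histories. The 10.7-kb domain at its start site had 0% in D0, 4.65% in D3, 11.8% (D6T-), 15.2% (D9T-), 57.9% (D12S+), 55.5% (D16S+) and 26.5% (ESD3), against 0% to 18.9% in the unsuccessful populations. The 18.7-kb domain inside the gene had 23.0% in D0, 27.3% in D16S+ and 13.1% in ESD3, with 42.6% in D4. The start-site domain was the late one, and neither was held by ESD3.

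The Esrrb domain, 10.7 kb inside the gene of the orphan nuclear receptor, was the latest of the group, with 0% in D0, D3, D6T-, D9T- and all 4 unsuccessful populations, 16.9% in D12S+, 17.4% in D16S+ and 42.7% in ESD3. At Sall4, a zinc-finger factor, the 10.1-kb domain shared with Atp9a was covered over 81.6% in D12S+ but 33.3% in D16S+ and 34.5% in ESD3, with 22.3% in D0. At Zscan10 the 16.9-kb domain shared with Zfp13 had 12.1% in D0, 31.8% in D16S+ and 43.8% in ESD3. Cover of these 3 was larger in ESD3 than in D0, with overlapping values among the middle days.

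The Cbx7, Phc1 and Trim28 domains had more cover in D0 than the other domains at pluripotency genes, though D0 did not hold Cbx7. Cbx7, a Polycomb protein, had 42.3% in D0, 15.7% in D3, 54.4% in D16S+ and 83.03% in ESD3. The Phc1 domain, which also holds the end of M6pr, had 50.8% in D0, 73.2% in D16S+ and 63.8% in ESD3 but 0% in MEF, and the Trim28 domain, at the corepressor of KRAB zinc-finger proteins, lay between 48.3% and 98.6% outside cKit+ and cKit-. The domain at Pou5f1 and Tcf19 (chr17:35632123-35653719) had 10.7% in D0, 6.21% in D3, 5.81% (D6T-), 19.2% (D9T-), 44.0% (D12S+), 46.9% (D16S+) and 73.4% (ESD3), and 39.2% in D12S- and 34.1% in D16S-. Its input density in iPSCs was 28.2 times the library median, and its tag density cannot be set beside that of other domains.

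Peaks of D0, D3 and MEF left 25 domains without a covered base, against 55.0% of all iPSC peaks, which were mostly shorter. The 5 longest lay near H2afb1, at Trim71, Usp7 and Slc2a3 and near Enc1. The Slc2a3 domain (12.0 kb, chr6:122676722-122688704), at the gene of the glucose transporter GLUT3 and next to the Nanog domain, had 0% in D6T- and 18.2% in D9T-, then 88.1% in D12S+, 91.2% in D16S+ and 91.0% in ESD3, and 0%, 0%, 57.8% and 86.4% in D6T+, D9T+, D12S- and D16S-. Unlike Nanog, it was covered in D16S- nearly as far as in D16S+. The second Trim71 domain (13.5 kb), inside the gene, had 0% (D6T-), 21.7% (D9T-), 50.1% (D12S+), 28.5% (D16S+) and 69.5% (ESD3), and H3K4me3 of iPSCs covered 98.4% of it. Usp7, which encodes a deubiquitinase, and the regions near H2afb1 and Enc1 stayed at or below 20.8% along the route and reached 58.1%, 46.2% and 58.7% in ESD3. These last 3 were thus largely uncovered in all libraries of the route.

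The region near Vmn1r3 differed between sorted cells of the same day. It was covered over 0% in D0, D3, D6T-, D9T-, D6T+, D9T+, D12S-, D16S-, MEF, D4, cKit+ and cKit-, over 64.2% in D12S+, 76.3% in D16S+ and 97.2% in ESD3, and over 0% by H3K4me3 and H3K36me3 of iPSCs. Its input density was 1.48 times the library median, and it lies 6.61 kb from the nearest start site. The densest region near F3, 27.9 kb from the nearest start site, took another course, with 0% in D0, 65.3% in D12S+ and 69.5% in D16S+ but 5.93% in ESD3.

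The second comparison set the domains against the histone marks of the same cells. In iPSCs, H3K4me3 covered 34.1% of the base pairs of the domains and H3K36me3 11.2%, both marks overlapped on 4.51%, and 59.2% lay under neither. H3K4me3 met 433 domains (90.8%; 71.1% of all iPSC peaks were not met) and held 119 (24.9%; interval 21.3% to 29.0%), against 16.6% of all iPSC peaks and 27.2% of peaks of 4 to 8 kb. The difference from the latter, -2.27 percentage points (-6.27 to 2.08), did not exclude 0. H3K36me3 met 294 domains (90% of all iPSC peaks were not met) and held 12 (2.52%; interval 1.45% to 4.35%), against 3.68% of all iPSC peaks. Of iPSC peaks of 4 to 8 kb, H3K4me3 met 76.8% and H3K36me3 32.2%.

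Position in the gene went with the marks. Start-site domains had a median H3K4me3 cover of 42.8%, and 68 of 168 were held by it, while gene-end domains had 19.8% and 11 of 108. H3K36me3 had its largest median, 13.6%, in the gene-end domains, and 0% outside genes. D0 H3.3 held 71.3% of the gene-end domains, 59.5% of the start-site domains, 39.1% of those within a gene and 27.9% of those outside genes, whereas ESD3 held 58.3%, 47.0%, 38.3% and 48.5%. Domains outside genes had the lowest share in D0, while in ESD3 their share (33 of 68) was close to that of start-site domains (79 of 168). Domains outside genes made up 18 of the 54 D0-negative domains (33.3%) and 19 of the 248 held by D0 (7.66%). The shares held by place were not counted over all iPSC peaks, so they describe the domains only.

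H3K36me3 was called over more of the same stretches in D0 to D9T- than in iPSCs. It held 156 of the domains in D0 (32.7%, against 17.2% of all iPSC peaks), 107 in D3 (10.4%), 65 in D6T- (6.74%) and 153 in D9T- (19.5%), the percentages again being those of all iPSC peaks. It held 0 in D12S+ (0.727%), a count that allows a share of up to 0.629% by the limit of 3 domains and of 0.799% by the Wilson interval, and 2 in D16S+ (1.21%). The lists shrank with it, from 153.6 Mb under H3K36me3 peaks in D0 and 167.6 Mb in D9T- to 7.43 Mb in D12S+, 11.1 Mb in D16S+ and 19.6 Mb in iPSCs, and their part in the count was not tested beyond the equal lists, where D0 held 27.9% and iPSCs 2.10%. H3K4me3 took the other direction between the ends, holding 63 domains in D0 and 119 in iPSCs, with 1 in D16S+. The D0 share, 13.2%, lay below the 16.7% of all iPSC peaks and the 21.7% of those of 4 to 8 kb. The D16S+ share was 0.210%, against 4.5% of all iPSC peaks. In the D0-negative group, D0 H3K4me3 met 35.2% of the domains, D12S+ 72.2% and iPSCs 83.3%, while 74.7%, 77.5% and 71.1% of all iPSC peaks were not met. Of iPSC peaks of 4 to 8 kb, 57.5%, 61.7% and 76.8% were met.

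The domains were rich in G and C. Their median GC content was 47.5% (interquartile range 45.2% to 49.9%), against 47.4% in iPSC peaks of 4 to 8 kb, 47.9% in D0 peaks of at least 8 kb and 41.2% in genome windows of 9850 bp. CpG dinucleotides stood at 14.3 per kb, against 7.21 in the windows. Motifs were counted by exact letters on both strands. The Klf-type element GGGTGTGG occurred 140 times per Mb (genome 63.7) and in 72.5% of the domains (windows 42.7%), and TGAGTCA, bound by AP-1, 204 times per Mb (genome 164; domains 85.95%, windows 77.6%). The A- and T-rich elements were sparser: the Sox element ACAATGG occurred 126 times per Mb (genome 184; domains 74.4%, windows 81.8%), and the octamer ATTTGCAT, bound by Oct4, 56.0 times per Mb (genome 91.5; domains 37.9%, windows 57.2%). The Il3ra domain alone held 52 of the 295 octamers, where no other domain held more than 5, and without it the density was 46.2 per Mb. Shorter iPSC peaks gave much the same densities: those of 4 to 8 kb held 136 Klf-type, 198 AP-1, 124 Sox and 53.5 octamer elements per Mb, and long D0 peaks 117.7, 210.2, 129 and 39.8.

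The Esrrb element TCAAGGTCA, printed above, occurred 46.5 times per Mb and in 39.4% of the domains, against 22.2 per Mb and 18.9% of genome windows, 48.9 per Mb in iPSC peaks of 4 to 8 kb and 33.1 per Mb in long D0 peaks. The density was thus shared with shorter iPSC peaks. Its density was 38.7 per Mb in the 248 domains held by D0, 50.3 in the 175 partly covered and 69.9 in the 54 D0-negative ones, where 26 of 54 held it. A region near Zfp64 held 7 of the 39 matches of the last group, and without it the density was 59.3.

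Input tags per kb, relative to the median of all iPSC H3.3 peaks, served to mark domains whose copy number in these cells, or in the assembly, may differ. The median domain stood at 1.19, and 11 domains (2.31%) exceeded 2, against 1.07% of all iPSC peaks. The 5 highest were Pou5f1/Tcf19 (28.2), a region near 9230019H11Rik (8.90), Mid1/Gm17379 on the X chromosome (8.32), 4833420G17Rik with 3110070M22Rik and Gm7120 (5.12) and a region near Fcgr3 (4.23). Each of them reached at least 35.7 tags per kb, and no unmarked domain did. At Pou5f1 the input density over the peaks there was 15.3 times the library median in D0 and 14.6 to 36.8 in the other libraries of the reprogramming series, but 1.30 in ESD3, 1.17 in MEF and 1.21 in D4. The raised input at Pou5f1 was thus present in the D0 library too, and its source and its part in the call were not tested. Over 6430527G18Rik, the second longest domain, the input stood at 2.20 in iPSCs, 1.99 in D0 and 1.24 in ESD3.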

How the data were processed

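ChIP-seq reads were aligned to mm9 by the authors with STAR, keeping uniquely mapping reads, and peaks were called against each population's input with HOMER in its histone style (tools per the submitters' notes, versions not given in the sources used here). Per the file headers, the iPSC H3.3 list used windows of 500 bp, stitching within 1000 bp, 22 tags per window, a Poisson p of 0.0001 over input and at least 2-fold enrichment (4-fold for the other marks). The authors called each library alone. The normalized tag count, total tags and control tags are signal values in the deposited lists, tags being scaled to 10 M by the authors. The fold change against input is a ratio that the authors deposited, and the p-value columns were deposited too and were not used to select anything here. In 7 lists the tags were scaled to the input and in 23 the reverse, so input was compared within a library only. The 16 inputs have no list of their own.

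The 46 samples were grouped by title, with 1 library per group and 18.7 to 91.8 M tags in the H3.3 libraries. Base pairs shared with merged peaks were counted in Python 3 with numpy and pandas, and checked on simulated intervals. Genes came from GENCODE vM1, whose sequence build equals mm9, and older symbols were matched through RefSeq. Intervals are Wilson or, for differences, Newcombe intervals from scipy.

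The domains, lists and rules were chosen with earlier results of these data known. Named were the 10 longest domains, the 10 densest without raised input (1 of them is not reported here), every domain on a pluripotency gene, the 5 longest with no base in D0, D3 and MEF, the 5 longest held by all 15 other H3.3 libraries (only 2 exist), the 5 with the highest input and the 3 nearest to 8 kb on each side. Regions singled out beyond these (with no ESD3 peak, near Zfp64 and genes with several domains) were chosen after their values were seen. In the annotation the model of Fgfr2 runs across Ctbp2, and domains there were read as Ctbp2. The alternatives varied the length limit, the share that counts as held, the number of peaks, the fold, the chromosomes, raised input and the gene rule.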

Additional observations from a re-analysis of the deposited data

Results flagged for a closer look

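Input density was outside the main measurement, and 9 of the 11 marked domains had a higher input density in the iPSC library than over the ESD3 peaks in the same place. The 11 were chosen by their iPSC input, which favours that direction, and the ESD3 value covers only the parts under ESD3 peaks, so the values are a description. Each value is the input tags per kb divided by the median of that library. The Pou5f1/Tcf19 domain stood at 28.2 in iPSCs and 1.30 in ESD3. The domain at 4833420G17Rik, 3110070M22Rik and Gm7120 stood at 5.12 and 0.556, and the one at Gm15698/Coil at 3.02 and 1.20. Over the peaks in the Coil domain the density was 0.837 for D0, 1.44 for D3, 1.83 for D6T-, 4.66 for D12S+, 4.95 for D16S+, 1.14 for D12S- and 1.12 for D4. The 4.60 for D9T+ and 10.4 for D16S- each rest on 1 peak of 0.5 kb, and D6T+, D9T-, MEF, cKit+ and cKit- had no peak there.

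The 3 domains at the zinc-finger gene cluster of Gm13242 and Gm13152 stood at 4.19 against 2.79, 4.12 against 2.44 and 2.38 against 1.43. The domain near Fcgr3 stood at 4.23 against 3.18, the one at Fcgr3 at 2.18 against 2.12, and the one at 6430527G18Rik at 2.20 against 1.24. The differences between the libraries have no replicate and were not tested. At the remaining pair, Mid1/Gm17379 stood at 8.32 against 11.03, and the region near 9230019H11Rik, at 8.90, had no ESD3 peak.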

How the results depend on the processing

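Of 66 alternative values, 35 stayed within the interval of the value reported and 31 left it. Autosomes alone and leaving out domains with raised input moved none of the 8 and 7 values they were tried on. Counting a domain as held from 25% of its length gave 69.4% in D0, 67.7% in D16S+, 84.1% in ESD3, 59.1% under H3K4me3, 13.6% under H3K36me3 and 6.08% held by no earlier library, and from 75% gave 31.0%, 8.18%, 12.0%, 4.40%, 0% and 45.3%. From 1 shared base pair it gave 88.7%, 97.5%, 99.2%, 90.8%, 61.6% and 0.210%. With peaks of at least 4-fold (8-fold for the other marks) it gave 37.1%, 8.18%, 12.8%, 3.98%, 0% and 42.4%. With the limit of 8 kb, ESD3 thus stood below D0 at 50% and 75% and under the stricter fold, and above it at 25% and at 1 base pair. Equal numbers of peaks gave 45.1% in D0 and 41.5% in ESD3. A limit of 6 kb gave 48.35% in D0 and 41.5% in ESD3. With one of 10 kb the order turned, with 50.23% in D0 and 54.3% in ESD3. The limit of 10 kb also gave 73.3% with the midpoint in a gene, where any overlap with a gene gave 85.7%. At 1.5 times the median input, 4.40% were marked. The cause of each shift was not tested beyond what the alternative itself changes. No paired analysis was possible because each group has 1 library and no test was made. Counting error and the calling limit of each list bound every value, and absence of a peak is not absence of H3.3.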
